A study of Rhizophagus irregularis DAOM 181602=DAOM 197198 with 30 samples.

Results

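Lipases cut fatty acids from storage fat and phospholipases cut membrane phospholipids, and both kinds of gene were followed here in germinating spores of Rhizophagus irregularis, an arbuscular mycorrhizal fungus. Members were gene models whose domain, enzyme or best-hit text holds the word lipase. Of 30282 gene models 113 held it, 5 of these were dropped by the rule (texts with peroxi or arylacetamide, and 1 model named in the rule), and 108 remained. The rule holds no measured value. Models are called here by their numbers in the Gloin1 genome annotation of the Joint Genome Institute, as the deposited tables list them.

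Spores of arbuscular mycorrhizal fungi store most of their carbon as triacylglycerol, which lipases open into glycerol and free fatty acids during germination. These fungi lack the enzyme complex that makes new fatty acids and take lipid from their host plant once inside the root. Phospholipases A and B release fatty acids from phospholipids, phospholipase C removes the phosphorylated head group, and phospholipase D frees the head group and leaves phosphatidic acid, which is both a signal and a precursor of other lipids.

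Messenger RNA was sequenced from strain DAOM197198. In the time course, 80000 spores that had germinated for 2 d in liquid medium received GR24, a synthetic strigolactone (strigolactones are hormones released by plant roots), at 1e-06 M, or acetone diluted 1 in 1000, and were collected after 1 h, 2 d, 7 d and 14 d. In the root set, 60000 spores lay for 14 d on cellophane above carrot hairy roots (root exudates) or above medium without roots (no roots). The libraries numbered 3 GR24 and 2 acetone at 1 h, 2 and 3 at 2 d, 2 and 2 at 7 d, 3 and 3 at 14 d, and 3 root exudates and 2 no roots.

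The 25 libraries held between 5786080 and 11812317 reads assigned to gene models. Levels are the deposited RPKM values (gene reads scaled to model length and library depth). Log2 fold changes, their standard errors (±) and adjusted p-values come from edgeR's quasi-likelihood test on the read counts, with Benjamini-Hochberg adjustment over all models tested and a threshold of 0.05. The word passed means an adjusted p under this threshold, while ± beside RPKM gives the SD of the libraries in 1 group. Groups that do not overlap in RPKM are named to describe models that passed. They rest on the same libraries as the test and are not separate support. The sample titles and the column headings name the 2 groups of the root set in opposite ways. The titles were followed, and every direction in that set reverses if the headings are right. Whether libraries of 1 group came from different cultures is not in the labels, and the tests therefore reflect the scatter among these libraries alone. In RNA from many whole spores, a change in some spores and a smaller change in all of them cannot be told apart.

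By their descriptions, 37 members were neutral lipases, 29 were phospholipases, 4 carried both words and 38 belonged to a wide family or to another protein. The neutral lipases comprised 22 class 3 lipases, a family that includes fungal triacylglycerol lipases. Of these, 2 were of the type that breaks down autophagic bodies in the vacuole. The substrates of the models were not tested. A further 8 were GDSL lipases (a family of lipases and esterases named after a motif at the active site). The other neutral lipases were 3 acid or steryl ester lipases, 2 of the hormone-sensitive type, 1 like yeast ROG1 and 1 known only by its enzyme number. The phospholipases comprised 9 of type D, 12 patatins, 3 phospholipases A1 with a DDHD domain, 2 of the B or cytosolic A2 type, 1 of type C, 1 GPI-specific type D and 1 lysophospholipase. Patatin names a domain and not an activity, and 4 of the 12 fall in the orthologous group that holds yeast Tgl3, Tgl4 and Tgl5, lipases that open triacylglycerol. In the last class, 11 models bear a lipase enzyme number on a text that describes something else, such as a splicing factor or a kelch protein. These models were counted apart throughout.

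Of the 108 members, 9 had no read in any library, among them all 4 patatins of the A2 type, and 9 more had 50 reads or fewer over all libraries. Between 85 and 89 members had enough reads to be tested in a comparison, and 18 were tested in none. Reads of 4 members (207085, 316365, 32000 and 81629) were shared with other models in more than 1% of cases, so their values are less certain.

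Class 3 lipases led the neutral lipases at the start and their summed level was lower at each later time, while that of phospholipases was not. In acetone controls the RPKM summed over the 37 neutral lipases averaged 2539 ± 5.66 at 1 h (n = 2), 2408 ± 62.3 at 2 d (n = 3), 1933 ± 8.46 at 7 d (n = 2) and 1708 ± 7.97 at 14 d (n = 3). The 22 class 3 lipases held most of that sum, at 2105 ± 17.9 at 1 h, 1910.4 ± 60.4 at 2 d, 1395 ± 6.93 at 7 d and 1177 ± 18.6 at 14 d. The sum over the 29 phospholipases was 1681 ± 23.98 at 1 h, 1807 ± 26.5 at 2 d, 1785 ± 6.49 at 7 d and 1976 ± 10.3 at 14 d. The neutral sum was above the phospholipase sum in both acetone libraries at 1 h and below it in all 3 acetone libraries at 14 d. GR24 libraries showed the same order of the classes at these 2 times, with neutral sums of 1666 ± 4.64 at 14 d and 2494 ± 34.8 at 1 h. With GR24 the neutral sum was 1904 ± 110 at 7 d (n = 2). At 2 d it was 2102 and 2219 in GR24 libraries, against 2336, 2444 and 2443 in acetone libraries. The order at 14 d depended on counting the 12 patatins as phospholipases, 4 of them in the group of the yeast Tgl lipases. In acetone controls the phospholipase sum without patatins was 1204 ± 8.66 at 1 h and 1496 ± 12.9 at 14 d. Both values were below the neutral sum of the same time. That sum counts the 2 models of the autophagic body type. In acetone libraries at 14 d, 340481 had 306, 324 and 308 RPKM and 143833 had 72.0, 73.2 and 75.7 RPKM. Without patatins, the order at 14 d thus depended on counting these 2 models as neutral lipases. These sums describe the classes and were not tested.

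**Figure D1:**
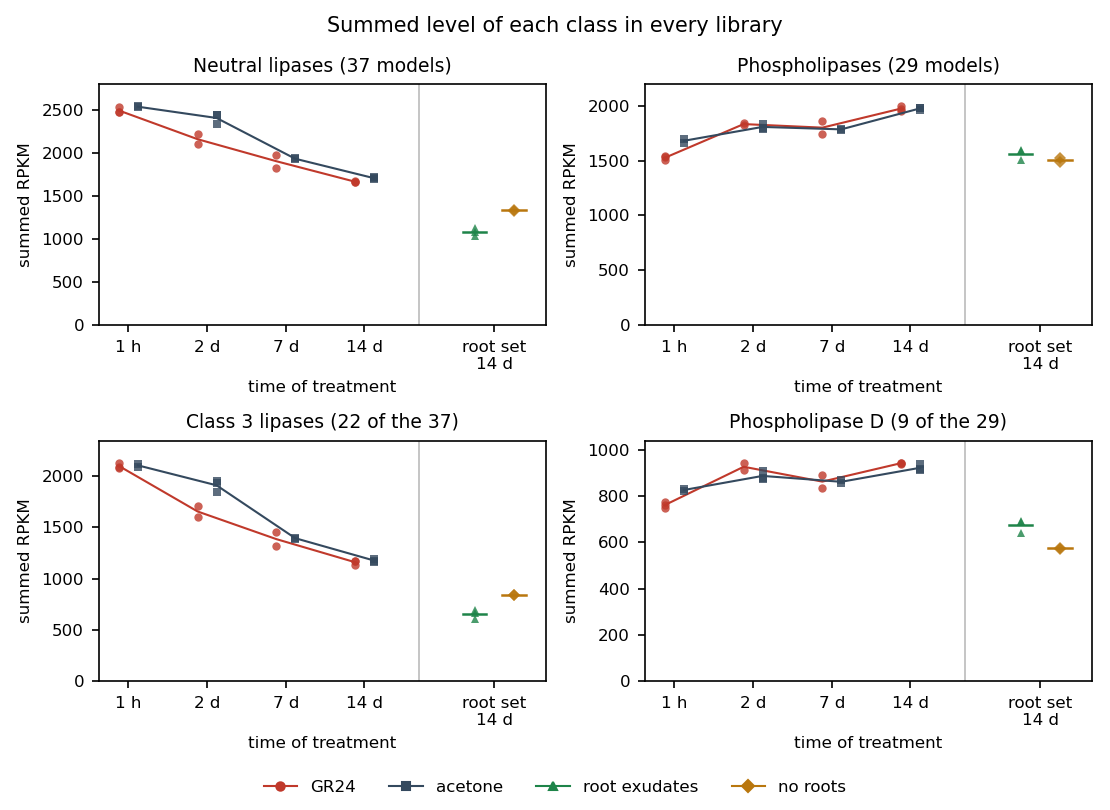
Summed RPKM (vertical axes, from 0) in every library for neutral lipases, phospholipases, class 3 lipases and phospholipases D. Points are libraries and lines join group means for GR24 and acetone over time, with the root set at the right. In acetone libraries at 14 d the neutral lipases averaged 1708 ± 7.97 and the phospholipases 1976 ± 10.3 (SD, n = 3). Without patatins the phospholipases averaged 1496 ± 12.9 there.

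A few models made up most of the difference. Class 3 lipase 348853, whose best hit in the annotation is a Rhizopus lipase precursor, was the most abundant member at 1 h. It had 193, 213 and 192 RPKM in acetone libraries at 14 d, against 968 and 937 RPKM at 1 h, and fell by 2.30 ± 0.12 on the log2 scale (adjusted p = 2.2e-11). All 3 late libraries were below both early ones, and the share of the class 3 sum held by this model was 16.9% at 14 d and 45.3% at 1 h. Together with 247214 and 338567 it held 39.2% of that sum at 14 d and 74.7% at 1 h. The sum over the remaining 19 class 3 lipases was 716 ± 5.97 RPKM at 14 d (n = 3) and 532 ± 4.31 RPKM at 1 h (n = 2).

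Class 3 lipase 338567 had 37.9, 45.4 and 41.6 RPKM in acetone libraries at 14 d and 271 and 273 RPKM at 1 h, and fell by 2.74 ± 0.11 (adjusted p = 5.89e-15), the lowest fold change among the members that passed. Model 1657 had 2.43, 2.49 and 3.34 RPKM at 14 d and 15.4 and 18.3 RPKM at 1 h, and fell by 2.62 ± 0.20 (adjusted p = 6.25e-13). No late library of either model reached the range of its early ones.

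Model 247214 had 209.8, 209 and 243 RPKM at 14 d and 349 and 347 RPKM at 1 h (-0.70 ± 0.080, adjusted p = 1.19e-08). Its groups did not overlap, and the step at 2 d against 1 h was -1.002 ± 0.080, against 0.38 ± 0.084 at 14 d over 7 d. The low models 349977 and 10845 are given in reads. Model 349977 had 10, 35 and 32 reads at 14 d and 100 and 97 reads at 1 h (-1.96 ± 0.29, adjusted p = 1.15e-06), and model 10845 had 9, 6 and 6 reads at 14 d and 36 and 31 reads at 1 h (-2.21 ± 0.43, adjusted p = 4.79e-05). Both were lower in every late library.

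Other class 3 lipases rose. Model 340481, of the autophagic body type, averaged 313 ± 9.46 RPKM at 14 d (n = 3) and 213 ± 2.26 RPKM at 1 h (n = 2) in acetone controls, with a log2 fold change of 0.51 ± 0.060 (adjusted p = 7.73e-09), and was the most abundant of the family at 14 d. Models 217277 (0.75 ± 0.076), 349824 (0.71 ± 0.15) and 99931 (0.67 ± 0.080) rose as well. Of the 14 class 3 lipases tested 4 rose and 7 fell, with a median log2 fold change of -0.47, where the median over all models tested was 0.01. Among the other neutral lipases, hormone-sensitive type 89784 rose (0.51 ± 0.069), as did the acid lipases 171211 (0.34 ± 0.10) and 207085 (0.47 ± 0.14).

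Phospholipases more often rose than fell over the same interval. Among all 89 members tested at 14 d against 1 h in acetone, 58 passed, 37 higher and 21 lower, and 53% of all models tested passed (26.3% higher, 26.7% lower). Of 28 neutral lipases 9 rose and 8 fell, and of 23 phospholipases 13 rose and 5 fell, with medians of 0.10 and 0.53. None of the neutral lipases that passed rose 2-fold and 5 fell 2-fold or more, while 7 of the phospholipases that passed rose 2-fold or more and none fell as far. Leaving out 1 library at a time gave 52 to 58 members that passed, and 6 of the 8 falls of neutral lipases and 12 of the 13 rises of phospholipases passed in every such fit. The difference between the classes was not tested.

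**Figure D2:**
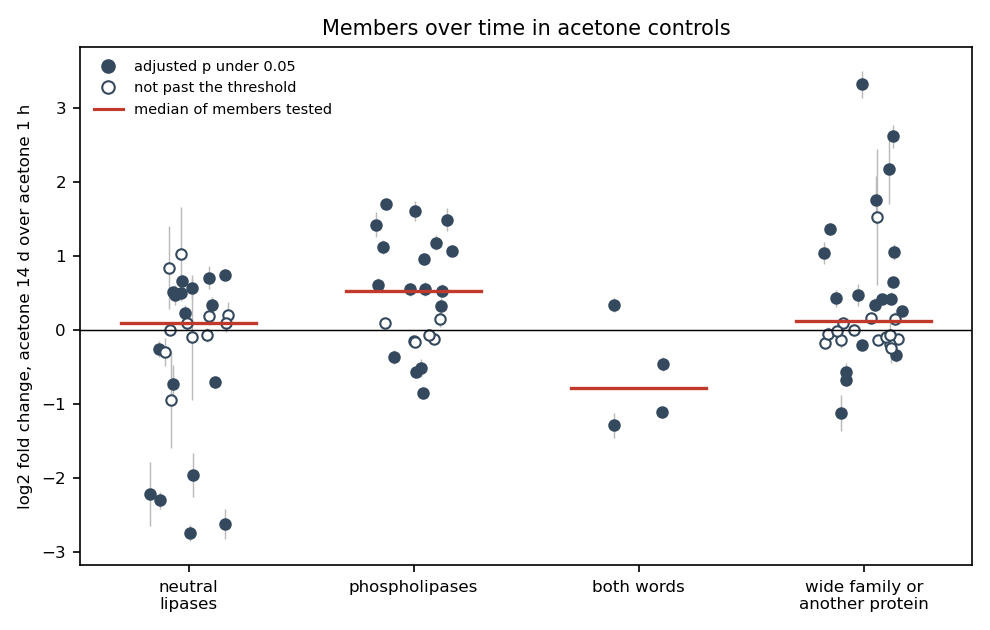
Log2 fold change (vertical axis) of each member tested in acetone controls, 14 d over 1 h, by class (horizontal axis), with its standard error. Filled circles passed the threshold, open circles did not, and a line marks each class median, 0.10 for neutral lipases and 0.53 for phospholipases. The 5 lowest filled points are class 3 lipases.

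Model 349215 carries the catalytic region of lysophospholipases and cytosolic phospholipases A2, the family of the phospholipases B that strip both fatty acids from a phospholipid. It had 194, 209 and 217 RPKM at 14 d in acetone libraries, against 61.2 and 62.5 RPKM at 1 h, and a log2 fold change of 1.70 ± 0.075 (adjusted p = 4.56e-19), the highest of the phospholipases. All late libraries lay above both early ones. Its steps were 1.13 ± 0.074 at 2 d over 1 h, 0.22 ± 0.070 at 7 d over 2 d and 0.35 ± 0.070 at 14 d over 7 d.

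Among phospholipases D, 5 of the 8 tested rose and 2 fell. Model 16667 had 22.1, 23.4 and 23.7 RPKM at 14 d and 8.16 and 6.47 RPKM at 1 h (1.61 ± 0.13, adjusted p = 2.43e-12), with no overlap. Models 65563 (1.43 ± 0.17), 217589 (1.18 ± 0.10), 170266 (1.08 ± 0.079) and 289647 (0.56 ± 0.093) rose too. The most abundant of them, 349325, had 571, 579 and 561 RPKM at 14 d and 600.4 and 626 RPKM at 1 h. Its log2 fold change of -0.14 ± 0.057 passed (adjusted p = 0.0329) but did not pass in 5 of the 20 fits with 1 library left out. This model held 61.9% of the phospholipase D sum at 14 d and 74.3% at 1 h, and the sum of the other 8 was 351 ± 7.32 RPKM at 14 d and 213 ± 14.8 RPKM at 1 h.

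The 3 phospholipases A1 with a DDHD domain, described as preferring phosphatidic acid, all rose: 19785 (1.13 ± 0.093), 35803 (0.55 ± 0.090) and 33204 (0.53 ± 0.090). All 3 patatins with a DnaJ domain, the part of a co-chaperone that binds heat shock protein, rose as well, led by 336872 (0.96 ± 0.079). Of the 4 patatins related to the yeast Tgl lipases, 64176 rose (1.49 ± 0.16), 71026 (-0.85 ± 0.079) and 338196 (-0.57 ± 0.070) fell, and 333872 did not pass (0.10 ± 0.062). The falling pair were more abundant than 64176, with 56.4 ± 0.891 and 99.96 ± 5.56 RPKM at 14 d (n = 3) and 99.2 ± 1.27 and 144 ± 8.58 RPKM at 1 h (n = 2), where 64176 had 23.2 ± 3.69 RPKM at 14 d and 7.99 ± 0.494 RPKM at 1 h.

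Of the 4 models with both words, 80598 is an acylglycerol lipase, the kind of enzyme that splits monoglycerides. It had 100.4, 109 and 95.7 RPKM at 14 d and 224 and 203 RPKM at 1 h, and fell by 1.11 ± 0.072 (adjusted p = 8.48e-15). The groups did not overlap. Models 162313 (-1.29 ± 0.17) and 343363 (-0.45 ± 0.095) fell too, and 128701 rose (0.34 ± 0.091).

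The steps between times were tested 1 by 1. At 2 d against 1 h, 50 of 89 members passed (27 higher, 23 lower, where 39.4% of all models passed, 20.7% higher and 18.7% lower), with 10 neutral lipases higher and 6 lower, and 8 phospholipases higher and 5 lower. At 7 d against 2 d, 27 passed (16 higher, 11 lower, where 25% of all models passed, 12.1% higher and 13% lower), with 5 neutral lipases higher and 8 lower, and 5 phospholipases higher and 1 lower. At 14 d against 7 d, 34 passed (24 higher, 10 lower, where 21.8% of all models passed, 10.4% higher and 11.5% lower), with 5 neutral lipases higher and 6 lower. In that last step 12 of 23 phospholipases were higher and none was lower, among them 5 of type D. Without acetone 7 d replicate 2 the number of members that passed was 14 in each of the last 2 steps. Of the 12 phospholipases 3 passed in every fit with 1 library left out, namely 170266, 33204 and 349215.

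**Figure D3:**
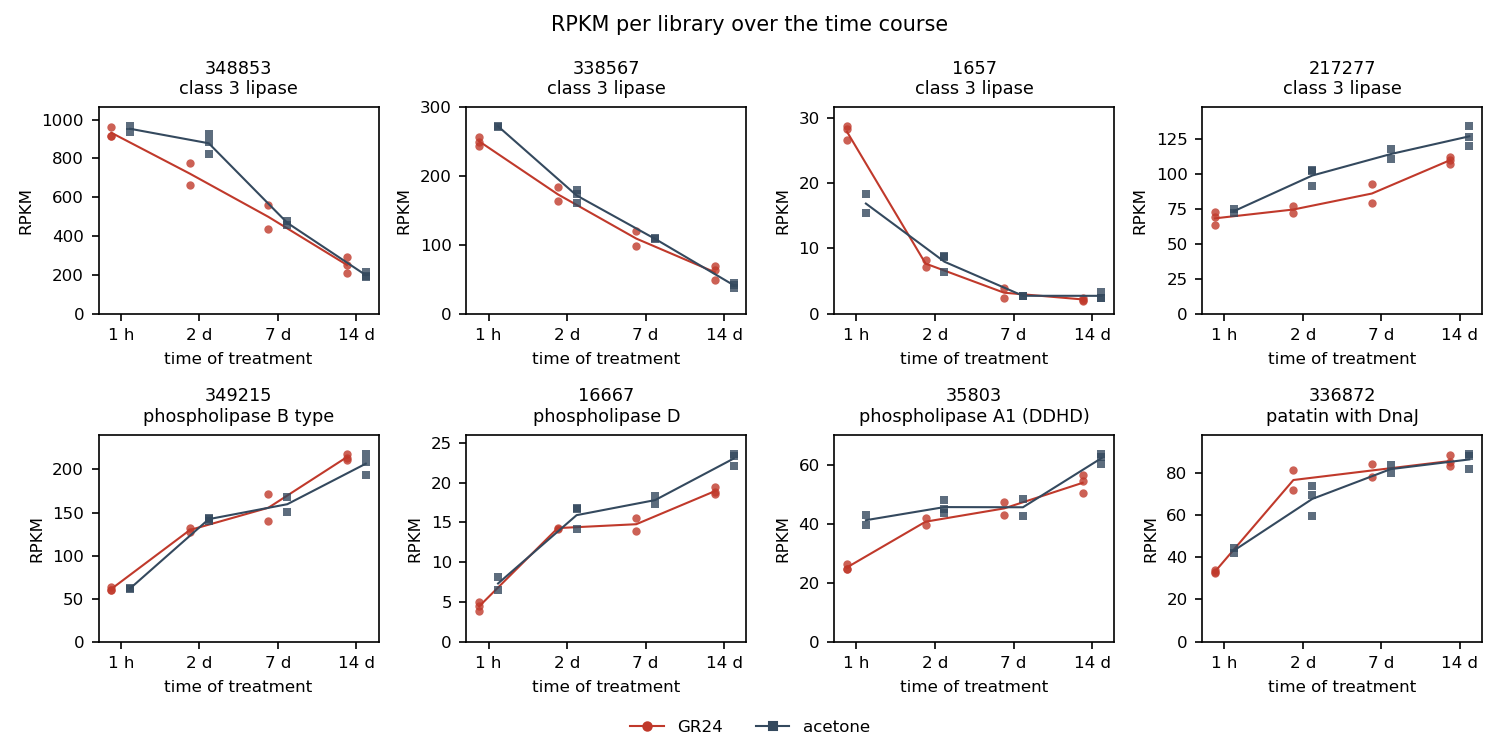
RPKM per library (vertical axes, from 0, scaled per model) at 1 h, 2 d, 7 d and 14 d (horizontal axes) for 4 class 3 lipases and 4 phospholipases. Circles are GR24 libraries, squares are acetone libraries and lines join group means. Models 348853, 338567 and 1657 are low at 14 d in both arms, 349215 and 16667 are high there, and 217277 is lower in GR24 libraries at 2 d, 7 d and 14 d.

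After 1 h of GR24, every phospholipase that passed was lower, and 3 of the 4 class 3 lipases that passed were higher. Of 86 members tested 15 passed, 5 higher and 10 lower, and 10.4% of all models tested passed (7.05% higher, 3.39% lower). Of 23 phospholipases 5 passed (3 by DESeq2), and their class median was -0.15, where that of all models was -0.01. Of 14 class 3 lipases 4 passed, with a class median near 0. The difference between the classes was not tested.

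The 3 DDHD phospholipases A1 were all among the lower models. Model 35803 had 24.6, 26.4 and 24.8 RPKM in GR24 libraries, against 43.1 and 39.5 RPKM in acetone libraries (-0.67 ± 0.11, adjusted p = 5.39e-05). Model 33204 had 35.5, 33.6 and 37.8 RPKM in GR24 libraries and 49.8 and 47.99 RPKM in acetone libraries (-0.42 ± 0.11, adjusted p = 0.00982). Model 19785 had 19.5, 15.4 and 18.8 RPKM in GR24 libraries and 22.9 and 24.1 RPKM in acetone libraries (-0.35 ± 0.11, adjusted p = 0.0432). In all 3 models every GR24 library lay below both acetone libraries. Of the 3, 35803 alone passed in every fit with 1 library left out. The call of 19785 was lost when GR24 replicate 2 or 3 was left out.

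Phospholipase D 16667 had 4.50, 3.87 and 4.96 RPKM in GR24 libraries and 8.16 and 6.47 RPKM in acetone libraries (-0.69 ± 0.19, adjusted p = 0.0166). Patatin 336872 had 32.3, 33.04 and 33.9 RPKM in GR24 libraries and 41.8 and 44.4 RPKM in acetone libraries (-0.34 ± 0.073, adjusted p = 0.0019). Acid lipase 171211, named after lysosomal enzymes that split triacylglycerol and steryl esters, had 21.3, 20.2 and 19.4 RPKM in GR24 libraries and 29.04 and 33.5 RPKM in acetone libraries (-0.58 ± 0.11, adjusted p = 0.000656). Again no GR24 library reached the acetone range. Class 3 lipase 99931 was lower as well (-0.29 ± 0.081, adjusted p = 0.0166). The RPKM summed over the 29 phospholipases was 1526 ± 15.7 in GR24 libraries (n = 3) and 1681 ± 23.98 in acetone libraries (n = 2).

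Among the higher models, class 3 lipase 1657 had 28.8, 26.5 and 28.2 RPKM in GR24 libraries and 15.4 and 18.3 RPKM in acetone libraries (0.77 ± 0.13, adjusted p = 0.000131). Model 320431 had 31, 41 and 14 reads in GR24 libraries and 9 and 8 reads in acetone libraries (1.72 ± 0.48, adjusted p = 0.0164). Model 247214 had 379, 401 and 390.1 RPKM in GR24 libraries and 349 and 347 RPKM in acetone libraries (0.21 ± 0.066, adjusted p = 0.0394). The groups did not overlap in these 3 models. The most abundant class 3 lipase, 348853, did not pass, with 964, 918 and 915 RPKM in GR24 libraries and 968 and 937 RPKM in acetone libraries.

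These calls rested on 2 acetone libraries. The number of members that passed was 9 without acetone replicate 2 and 6 without acetone replicate 3. Models 35803, 1657, 349359, 70481 and 35355, 5 of the 15, passed in every fit with 1 library left out. The acetone libraries at 1 h also serve as the early point of the time comparison. Side by side, 35803 had a log2 fold change of 0.55 at 14 d against 1 h in acetone and of -0.67 with GR24 at 1 h. Model 16667 had 1.61 in the first comparison and -0.69 in the second, and model 1657 had -2.62 in the first and 0.77 in the second. These models are examples. The signs of the 2 comparisons were not counted over the 15 members or over all models, and a link between them was not tested.

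Later GR24 effects were fewer. At 2 d 4 of 88 members passed (1 higher, 3 lower, where 2.15% of all models passed, 1.02% higher and 1.13% lower), at 7 d 3 of 87 (2 higher, 1 lower, against 6.43% of all models, 4.31% higher and 2.12% lower) and at 14 d 6 of 85 (1 higher, 5 lower, against 3.25% of all models, 1.29% higher and 1.95% lower). The member that passed at each of these times was class 3 lipase 217277, described as a predicted lipase of a group with calmodulin-binding heat-shock proteins. It fell by 0.36 ± 0.086 at 2 d (adjusted p = 0.0371). It fell by 0.44 ± 0.089 at 7 d (adjusted p = 0.000424) and fell by 0.22 ± 0.049 at 14 d (adjusted p = 0.00984).

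At 2 d model 217277 had 71.9 and 76.95 RPKM in GR24 libraries, against 102, 90.98 and 103 RPKM in acetone libraries. At 7 d it had 79.3 and 92.4 RPKM in GR24 libraries and 118 and 110.5 RPKM in acetone libraries. At 14 d it had 109.8, 112 and 107 RPKM in GR24 libraries and 134, 119.6 and 126 RPKM in acetone libraries. The groups did not overlap at any of these times. At 1 h they did overlap, with 68.97, 63.1 and 72.3 RPKM in GR24 libraries and 71.8 and 74.6 RPKM in acetone libraries.

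At 2 d, autophagic body lipase 143833 had 53.1 and 44.5 RPKM in GR24 libraries and 70.2, 65.8 and 68.1 RPKM in acetone libraries (-0.44 ± 0.10, adjusted p = 0.0281). GDSL lipase 348643 had 73.4 and 82.5 RPKM in GR24 libraries and 60.4, 55.05 and 58.2 RPKM in acetone libraries (0.48 ± 0.11, adjusted p = 0.0281). Neither pair of groups overlapped. None of 23 phospholipases passed edgeR's test at 2 d or at 7 d, with 3 at an unadjusted p under 0.05 at each time, and DESeq2 called no member there that edgeR did not.

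At 14 d DDHD phospholipase 19785 (-0.24 ± 0.064, adjusted p = 0.0362) and phospholipase D 16667 (-0.30 ± 0.084, adjusted p = 0.0458) were lower, and DESeq2 called 0 of 23 phospholipases there. Class 3 lipase 338567 had 69.8, 48.5 and 62.9 RPKM in GR24 libraries and 37.9, 45.4 and 41.6 RPKM in acetone libraries (0.51 ± 0.12, adjusted p = 0.0474). Its groups did not overlap.

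Most of these late calls depended on single libraries. At 2 d the number of members that passed was 2 with GR24 replicate 1 left out, 0 with GR24 replicate 3 left out, 2 with acetone replicate 1 left out and 0 with acetone replicate 3 left out. At 7 d it was 5 without GR24 replicate 3 and 1 without acetone replicate 1, and DESeq2 called 1. At 14 d it was 0 when GR24 replicate 1 was left out, 2 when GR24 replicate 3 was left out, 1 when acetone replicate 1 or 2 was left out and 3 when acetone replicate 3 was left out. Of all calls at these times, that of 217277 at 7 d alone passed in every such fit.

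Averaged over the 4 times, the members that passed were lower with GR24. This shared effect passed in 13 of 89 members, 0 higher and 13 lower, where 8.76% of all models passed, 4.72% higher and 4.05% lower, and DESeq2 gave the same 13. The neutral lipases were 217277 (-0.27 ± 0.038, adjusted p = 5.12e-06), 171211 (-0.23 ± 0.052), 99931 (-0.15 ± 0.039) and the ROG1-type 343643 (-0.14 ± 0.045). The phospholipases were 16667 (-0.35 ± 0.064), 35803 (-0.26 ± 0.046) and 19785 (-0.19 ± 0.045), and the other 6 members were of the wide class. Models 217277, 171211, 16667, 35803, 19785 and 345912 passed in every fit with 1 library left out, while the call of 343643 was lost in most of these fits. The median over all 89 members was -0.05, against 0.01 over all models.

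**Figure D4:**
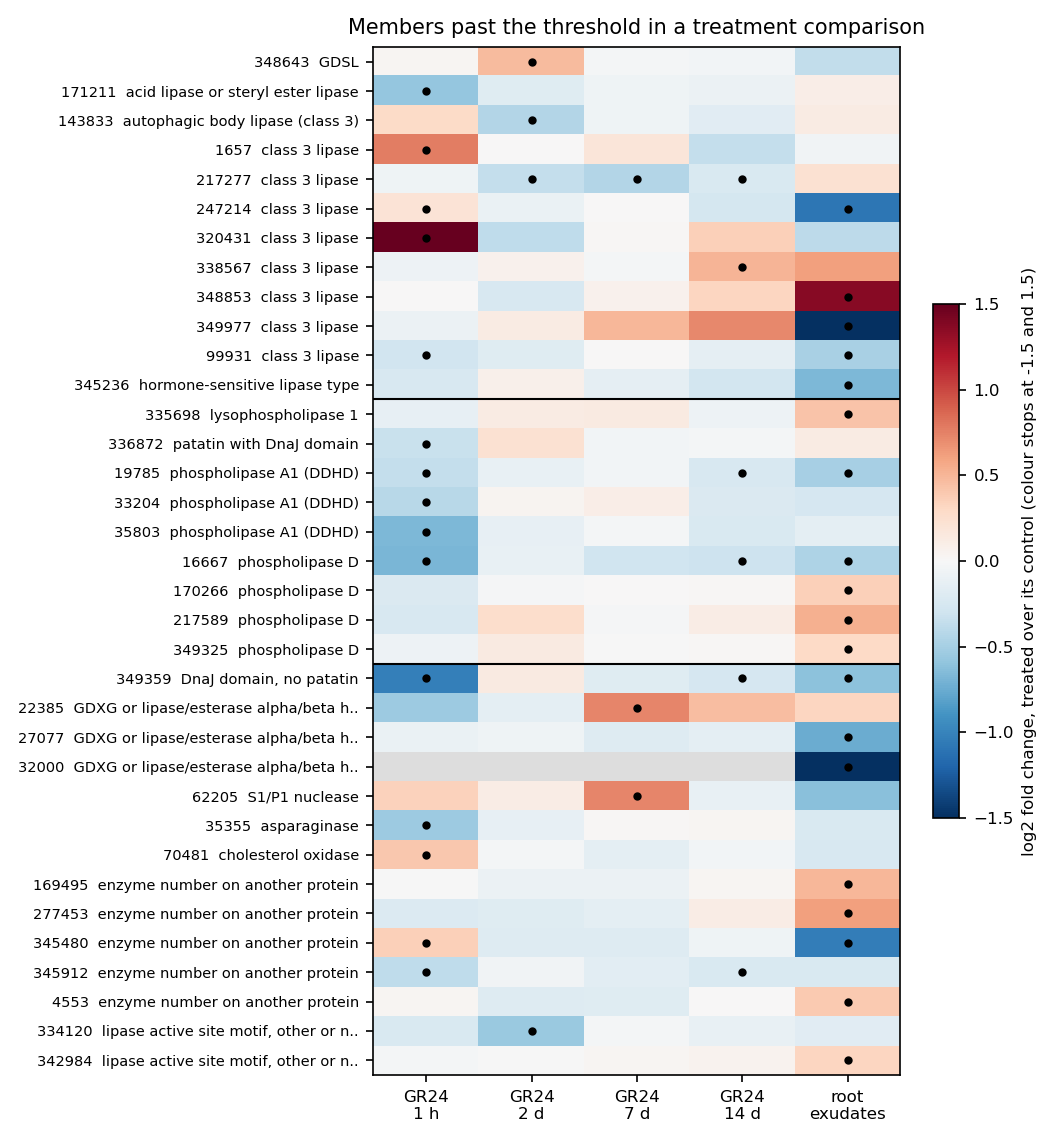
Log2 fold changes, treated over its own control, of the 35 members that passed in at least 1 of the 5 treatment comparisons (rows, grouped by class) in each comparison (columns). Red is higher, blue is lower, grey was not tested and a dot marks an adjusted p under 0.05. Of the 35, 27 passed in 1 comparison, 4 in 2 and 4 in 3, and model 217277 is blue with a dot at 2 d, 7 d and 14 d.

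The GR24 effect differed between times in 16 of 89 members by the interaction test, where 10.1% of all models passed, and 6 of the 16 passed in every fit with 1 library left out (143833, 336872, 345480, 70481, 35355 and 22385). Among neutral lipases the 16 included 143833, 348643, 247214, 1657, 338567, 171211 and hormone-sensitive type 89784, and among phospholipases 336872, 35803 and 33204. Of 20 such fits, 171211 did not pass in 16, 338567 in 12, 1657 in 7, and 247214 and 89784 in 6 each. The number was 9 without acetone 1 h replicate 2 and 10 without acetone 1 h replicate 3. For 35803 the effect was -0.67 at 1 h, -0.13 at 2 d, -0.03 at 7 d and -0.23 at 14 d (interaction adjusted p = 0.00496). For 217277, which passed at 3 times, the interaction did not pass (adjusted p = 0.0837).

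In the root set a larger number of members passed than with GR24 at 14 d. Of 89 members tested 19 passed, 9 higher and 10 lower, and 15.2% of all models passed (7.46% higher, 7.75% lower). Of 27 neutral lipases 1 was higher and 4 were lower, and of 23 phospholipases 4 were higher and 2 were lower, with 3 of the 4 being of type D. No patatin passed edgeR's test, with 1 of 8 at an unadjusted p under 0.05, and DESeq2 called 0 of the 8.

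Class 3 lipases moved in both directions. Model 247214 had 144, 132 and 149 RPKM in root exudates libraries, against 305 and 320.2 RPKM in no roots libraries (-1.08 ± 0.077, adjusted p = 1.01e-05). Model 349977 had 5.54, 8.19 and 10.99 RPKM in root exudates libraries and 27.7 and 20.7 RPKM in no roots libraries (-1.49 ± 0.25, adjusted p = 0.00477). In the opposite direction, 348853 had 47.1, 59.4 and 70.9 RPKM in root exudates libraries and 22.6 and 25.1 RPKM in no roots libraries (1.37 ± 0.17, adjusted p = 0.000482). The groups did not overlap in any of these, and the 3 calls passed in every fit with 1 library left out.

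Hormone-sensitive type 345236 belongs to a family that opens diacylglycerol in animals. It had 43.3, 38.9 and 35.8 RPKM in root exudates libraries and 62.5 and 67.7 RPKM in no roots libraries (-0.67 ± 0.13, adjusted p = 0.0065). Class 3 lipase 99931 had 39.5, 49.4 and 42.8 RPKM in root exudates libraries and 62.0 and 65.8 RPKM in no roots libraries (-0.49 ± 0.11, adjusted p = 0.0136). Neither pair of groups overlapped. The RPKM summed over the 37 neutral lipases was 1082 ± 50.5 in root exudates libraries (n = 3) and 1332 ± 5.396 in no roots libraries (n = 2). The sum over the 29 phospholipases was 1562 ± 48.3 in root exudates libraries and 1509 ± 24.9 in no roots libraries.

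Among phospholipases D, 217589 had 59.98, 53.7 and 56.1 RPKM in root exudates libraries and 42.2 and 39.2 RPKM in no roots libraries (0.54 ± 0.12, adjusted p = 0.0104). The abundant model 349325 had 359.8, 384 and 388 RPKM in root exudates libraries and 314 and 324 RPKM in no roots libraries (0.30 ± 0.066, adjusted p = 0.0107). Model 170266 had 71.6, 65.6 and 65.9 RPKM in root exudates libraries and 58.5 and 52.03 RPKM in no roots libraries (0.35 ± 0.10, adjusted p = 0.0316). These 3 were higher in every root exudates library. Model 16667 went the other way, with 12.5, 13.5 and 13.03 RPKM in root exudates libraries and 19.4 and 18.01 RPKM in no roots libraries (-0.47 ± 0.13, adjusted p = 0.0325), again without overlap. None of these phospholipase D calls passed in every fit with 1 library left out, and those of 349325, 170266 and 16667 were lost in most. The phospholipase D sum was 673 ± 29.1 RPKM in root exudates libraries and 574 ± 1.51 RPKM in no roots libraries.

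DDHD phospholipase 19785 had 37.3, 40.3 and 43.01 RPKM in root exudates libraries and 59.3 and 59.3 RPKM in no roots libraries (-0.50 ± 0.086, adjusted p = 0.00286). Lysophospholipase 335698, of the kind that removes the remaining fatty acid of a phospholipid already cut once, had 143, 129 and 126 RPKM in root exudates libraries and 92.3 and 114 RPKM in no roots libraries (0.43 ± 0.11, adjusted p = 0.0268). The groups of both models were apart. The number of members that passed was 11 without root exudates replicate 2 and 10 without either no roots library. Of the 11 neutral lipases and phospholipases called, 247214, 348853, 349977 and 19785 passed in every such fit.

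**Figure D5:**
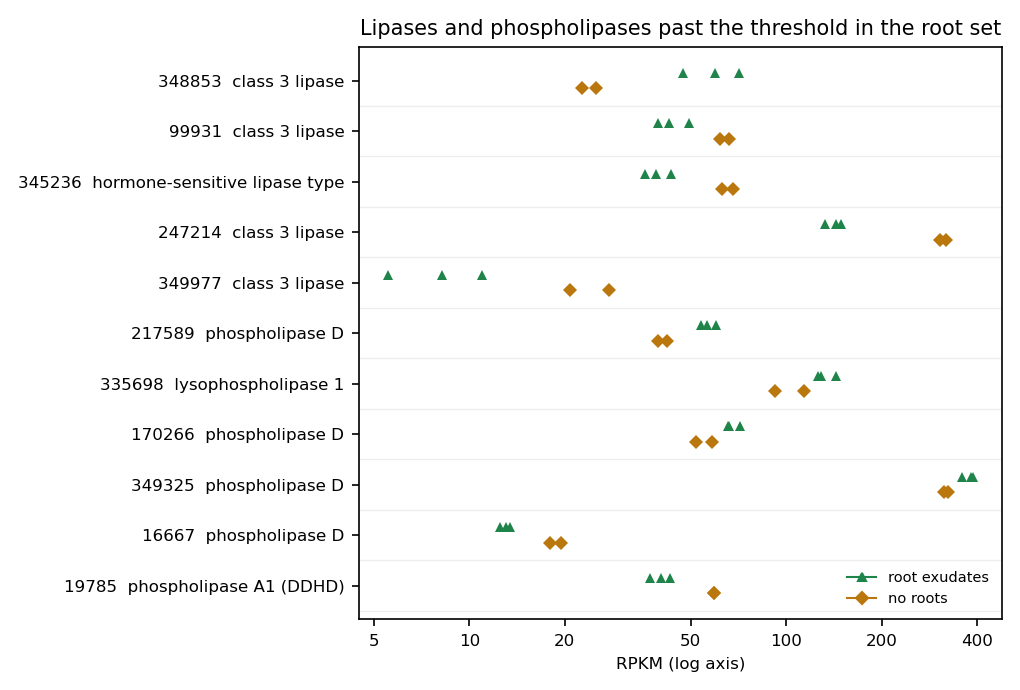
RPKM per library (horizontal log axis) of the 5 neutral lipases and 6 phospholipases that passed in the root set (rows). Triangles are the 3 root exudates libraries and diamonds are the 2 no roots libraries, named by the sample titles. The groups are apart in every row, with 348853 and 3 phospholipases D higher and 247214 and 349977 lower in root exudates libraries.

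The effect of root exudates minus that of GR24 at 14 d passed in 15 of 89 members, 11 higher and 4 lower, where 11.4% of all models passed (6.39% higher, 4.97% lower). It was -0.81 ± 0.11 for 247214 (adjusted p = 0.000127), -2.21 ± 0.40 for 349977 (adjusted p = 0.00214) and 1.05 ± 0.25 for 348853 (adjusted p = 0.026). Among phospholipases D it was 0.42 ± 0.12 for 217589, 0.28 ± 0.066 for 349325 and 0.33 ± 0.10 for 170266. Of 11 fits with 1 library left out, 217589 did not pass in 4, 170266 in 5 and 348853 in 3, while 349325, 247214 and 349977 passed in all 11. The number was 8 without GR24 14 d replicate 3 and 8 without no roots replicate 2. The 2 sets were cultured differently, and each treatment enters this test through its own control.

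Models of the wide class moved as well. Model 349359, with a DnaJ domain and no patatin domain, had 8.46, 9.23 and 9.204 RPKM in GR24 libraries at 1 h and 17.3 and 20.4 RPKM in acetone libraries (-1.03 ± 0.11, adjusted p = 8.71e-08). In acetone libraries at 14 d it had 208, 191 and 180.4 RPKM, and its log2 fold change over 1 h was 3.32 ± 0.19 (adjusted p = 2.28e-09), the highest among the members that passed. Neither pair of groups overlapped. It was lower in the root set too (-0.61 ± 0.14, adjusted p = 0.0263).

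Other wide-class models had large changes over time in acetone controls. Model 334120, which holds a lipase active site motif and no named family, had 124, 116 and 152 RPKM at 14 d and 21.4 and 19.99 RPKM at 1 h (2.62 ± 0.16, adjusted p = 1.1e-13). Model 62205, of the S1/P1 nuclease family that cuts single-stranded nucleic acids, had 11.1, 14.1 and 12.7 RPKM at 14 d and 1.41 and 4.22 RPKM at 1 h (2.18 ± 0.47, adjusted p = 0.00101), and its highest acetone values were at 2 d, with 26.2, 60.04 and 36.4 RPKM. Model 68200, a BEM46-type alpha/beta hydrolase, had 5.49, 8.12 and 10.8 RPKM at 14 d and 2.56 and 2.16 RPKM at 1 h (1.76 ± 0.32, adjusted p = 2.34e-05). The groups were apart in all 3, and these calls passed in every fit with 1 library left out. With GR24, 334120 was lower at 2 d (-0.56 ± 0.12, adjusted p = 0.0202) and 62205 was higher at 7 d (0.73 ± 0.20, adjusted p = 0.0161), a call that DESeq2 did not make.

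Model 27077, a lipase or esterase of the alpha/beta hydrolase fold, had 33.2, 22.4 and 27.6 RPKM in root exudates libraries and 47.7 and 49.2 RPKM in no roots libraries (-0.74 ± 0.17, adjusted p = 0.0145). The groups did not overlap, but the call was lost in 3 of the 5 fits with 1 library left out (without root exudates replicate 2 or either no roots library). Model 99246, described as a phospholipase A2 activating protein, was among the 5 most abundant models of its class, with 162 ± 8.11 RPKM at 14 d (n = 3) and 180.3 ± 5.13 RPKM at 1 h (n = 2) in acetone controls (-0.20 ± 0.059, adjusted p = 0.00477).

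Some models bear a phospholipase number and another description. Of these, 345480, described as a chromatin remodelling component, had 222, 242 and 247 RPKM in root exudates libraries and 590.1 and 419 RPKM in no roots libraries (-1.03 ± 0.14, adjusted p = 0.00306), and was higher after 1 h of GR24 (0.35 ± 0.072). The splicing regulator 169495 (0.50 ± 0.077), the Myb-like coregulator 277453 (0.61 ± 0.084) and the kelch protein 4553 (0.39 ± 0.073) were higher in root exudates libraries. After 1 h of GR24 the asparaginase 35355 was lower (-0.54 ± 0.10) and the cholesterol oxidase 70481 was higher (0.40 ± 0.066). Model 32000, an alpha/beta hydrolase, had 3, 2 and 5 reads in root exudates libraries and 29 and 13 reads in no roots libraries (-2.48 ± 0.59, adjusted p = 0.0145), and a share of its reads also matched other models.

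Other genes of glycerolipid turnover were taken from a keyword list of 87 models, of which 39 are described as another protein and 48 as enzymes of the pathway. Of the enzymes, 6 of 44 passed after 1 h of GR24 (4 higher, 2 lower, where 10.4% of all models passed), 2 of 43 at 14 d (both lower, against 3.25% of all models) and 13 of 44 in the root set (9 higher, 4 lower, against 15.2% of all models). None of 44 passed edgeR's test at 2 d and none of 43 at 7 d, each with 6 at an unadjusted p under 0.05, and DESeq2 called 0 at either time. Ethanolamine kinase 343662, which starts the making of phosphatidylethanolamine, was higher after 1 h of GR24 (0.73 ± 0.072, adjusted p = 9.22e-09) and lower in root exudates libraries (-0.51 ± 0.079, adjusted p = 0.00162). Phosphatidic acid phosphatase 72739, which turns phosphatidic acid into diacylglycerol, was lower with GR24 at 1 h (-0.40 ± 0.10) and at 14 d (-0.43 ± 0.074) and in root exudates libraries (-0.53 ± 0.16). Diacylglycerol acyltransferase 151953, which makes triacylglycerol, was higher in root exudates libraries (0.33 ± 0.072, adjusted p = 0.0107).

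Models 16667, 170266, 320431, 348643, 64176, 65563, 71026, 80598, 89784, 289647, 207085, 349824, 162313, 343363, 128701, 343643, 342359 and 91661 fall outside the rule for named members and were chosen after their values were seen.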

How the data were processed

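Poly-A selected RNA was sequenced in 25 libraries of 10 groups. The labels list 30 samples, and 5 of them (replicate 2 of GR24 at 2 d and 1 at 7 d, replicate 1 of acetone at 1 h and 3 at 7 d, and replicate 3 of no roots) were not analysed here. Groups follow the sample titles. The authors deposited read counts per gene model (total and unique gene reads) and RPKM, per the file headers, in 5 tables of 30282 models. The aligner is not given in the sources used here.

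Members were matched by text and sorted by hand into classes from their descriptions. The members and lists were chosen with earlier results of these data known. The counts of total reads went into edgeR 4.0.16 (robust quasi-likelihood, filterByExpr with a minimum count of 10, TMM scaling, Benjamini-Hochberg adjustment over all models tested) in R 4.3.3. Each time of GR24 and the root set were fitted apart, the time steps, the shared effect and the interaction over all time-course libraries, and the root effect minus the GR24 effect over the libraries of both sets at 14 d. The standard error is the fold change divided by the square root of F. Alternatives were DESeq2 1.42.0, its size factors in edgeR, no filter on low counts, unique reads, the replicate number as a block, and each library left out in turn. The steps were also run on simulated data with the same spread for every model and changes of equal size. Spread differs between real models, so this run checked the code and not the error rates in these libraries. In 20 pairs of libraries of 1 group, chi-square per degree of freedom ran from 2.78 to 9.83, so none was a copy of another. No member matched the reference table, so no coordinates or sequences are given.

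Members named with values were the 25 with the smallest adjusted p in the treatment comparisons, the 5 with the highest mean RPKM in each class, the 10 largest changes at 14 d against 1 h, and the 10 smallest adjusted p in the interaction and in the root minus GR24 test.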

Additional observations from a re-analysis of the deposited data

Results flagged for a closer look

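The effect of GR24 differed between times in 16 of 89 members by the interaction test of edgeR (adjusted p over all models tested). Of all models, 10.1% passed that test. Among neutral lipases the adjusted p was 0.00374 for 143833, 0.0188 for 348643, 0.0226 for 89784, 0.0261 for 247214, 0.0325 for 1657, 0.0413 for 338567 and 0.0499 for 171211. Lipase 1657 was higher with GR24 at 1 h (0.77 ± 0.13) and not past the threshold at 2 d (0.01 ± 0.21), 7 d (0.19 ± 0.35) and 14 d (-0.36 ± 0.27). Autophagic body lipase 143833 was lower at 2 d (-0.44 ± 0.10) and had 0.29 ± 0.10 at 1 h, -0.06 ± 0.12 at 7 d and -0.17 ± 0.062 at 14 d. Among phospholipases the adjusted p was 0.00415 for 336872, 0.00496 for 35803 and 0.0203 for 33204, all of them lower at 1 h. In the wide class it was 8.57e-05 for 345480, 0.000391 for 70481, 0.00109 for 35355, 0.00515 for 22385, 0.0215 for 277453 and 0.0407 for 349359. Of 20 fits with 1 library left out, 171211 did not pass in 16, 349359 in 15, 338567 in 12, 1657 in 7, 247214 and 89784 in 6 each, 277453 in 4, 348643 in 2, and 35803 and 33204 in 1 each, and the other 6 passed in all. The call of 171211 was also lost with DESeq2, with its size factors in edgeR and with unique reads.

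The effect of root exudates minus that of GR24 at 14 d passed edgeR's test in 15 of 89 members, where 11.4% of all models passed. Class 3 lipase 247214 had -0.81 on the log2 scale, 349977 had -2.21, 99931 had -0.35, 348853 had 1.05 and 217277 had 0.45. Behind the value of 348853 stood a root effect of 1.37 ± 0.17 and a GR24 effect of 0.32 ± 0.13. Phospholipases D 349325, 170266 and 217589 had 0.28, 0.33 and 0.42, and lysophospholipase 335698 had 0.5. In the wide class 345480 had -0.96, 277453 had 0.5, 169495 had 0.47, 4553 had 0.38, 342359 had 0.34 and 22997 had 0.26. Of these 15, 7 passed in every one of the 11 fits with 1 library left out (247214, 349977, 349325, 345480, 277453, 169495 and 4553), while 99931 did not pass in 10, 22997 in 8, 217277 in 7, 170266 in 5, 217589, 335698 and 342359 in 4 each and 348853 in 3. The root effect in each value has the direction given by the sample titles, and no value was computed with the groups named by the column headings.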

How the results depend on the processing

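Changing 1 setting at a time reversed no result. The number of members that passed stayed within 1.5 times the reported one under the other normalization, no filter, unique reads and DESeq2, except that DESeq2 called 1 member for GR24 at 7 d, against 3 by edgeR. With 1 library left out the number ran from 6 to 16 for GR24 at 1 h, 0 to 4 at 2 d, 1 to 5 at 7 d, 0 to 6 at 14 d, 10 to 26 in the root set, 9 to 14 for the shared effect, 9 to 18 for the interaction and 8 to 22 for root exudates minus GR24 at 14 d. In acetone it ran from 52 to 58 at 14 d against 1 h, 40 to 50 at 2 d against 1 h, 14 to 29 at 7 d against 2 d and 14 to 35 at 14 d against 7 d. The cause was not tested. Where a group was left with 1 library, that library was assumed to vary like the others. Same-numbered libraries did not deviate together at 14 d (correlations of 0.0164, -0.0728 and 0.0075 for GR24 and acetone). Where a group had 2 libraries their deviations mirror each other, so such correlations carry little information. They cannot show whether the numbers pair the samples, and the main fits treated the libraries as unpaired. With the replicate block the number was 15 at 1 h, 4 at 2 d, 4 at 14 d, 17 in the root set, 12 for the shared effect, 16 for the interaction, 11 for root exudates minus GR24 at 14 d, and 55, 50, 29 and 32 for the acetone comparisons in the order above. No paired analysis was possible at 7 d because GR24 and acetone share only replicate 2. The 18 members tested in no comparison had too few reads for a test, and 9 of them had none in any library.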

Other observations

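The enzymes of glycerolipid turnover changed over time in acetone controls in both directions. At 14 d against 1 h, 35 of the 45 tested passed, 21 higher and 14 lower, where 53% of all models passed. Diacylglycerol acyltransferase 151953, which makes triacylglycerol, was higher at 14 d (1.09 ± 0.060, adjusted p = 1.39e-16 by edgeR) and higher at each step, by 0.30 ± 0.059 at 2 d against 1 h, 0.47 ± 0.058 at 7 d against 2 d and 0.33 ± 0.059 at 14 d against 7 d. Glycerol-3-phosphate dehydrogenase 74991 was lower at 14 d (-1.37 ± 0.087, adjusted p = 6.05e-15 by edgeR). Both were named from that list after their values were seen.

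Class 3 lipase 348853 stood at different levels in the 2 sets of cultures at 14 d. It had 47.1, 59.4 and 70.9 RPKM in root exudates libraries and 22.6 and 25.1 RPKM in no roots libraries, and the time course had 292, 212 and 251 RPKM in GR24 libraries and 193, 213 and 192 RPKM in acetone libraries. The sets differ in medium, spore number and table, and were not compared by a test.

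GDSL lipase 91661 had 0, 0 and 0 reads in GR24 libraries at 1 h, 5 and 12 at 2 d, 2 and 2 at 7 d and 0, 0 and 1 at 14 d. In acetone libraries it had 0 and 0 reads at 1 h, 3, 15 and 14 at 2 d, 2 and 0 at 7 d and 0, 0 and 0 at 14 d. In the root set it had 16, 7 and 18 reads in root exudates libraries and 13 and 42 in no roots libraries, and it did not pass there (-0.90 ± 0.53, adjusted p = 0.286 by edgeR).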
